A study of Mus musculus with 12 samples.

Results

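Smooth muscle and pericyte genes were followed in hippocampi of 18-week-old mice, all wild-type and of the C57BL6/J strain. The set held 10 named genes of 52636 in the deposited tables, and each was found once by its symbol: Acta2, Myh11, Tagln, Myl9, Cnn1, Pdgfrb, Rgs5, Kcnj8, Abcc9 and Des. RNA of 12 mice was sequenced, 1 library per mouse, in 4 groups of 3: males with a high extinction level, males with a low one, females with a high one and females with a low one. In fear extinction an animal stops fearing a signal that no longer predicts harm. The sources used here do not say how a mouse was assigned to a level or what training it had. All 4 groups shared strain, genotype and age, and no group carried a transgene or drug treatment in the labels. All differences below are low minus high extinction, and a ratio divides low by high.

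Mural cells wrap the endothelial tube of brain vessels. Smooth muscle cells encircle arteries and arterioles and contract through actin and a smooth muscle myosin, whereas pericytes sit on capillaries and are kept there by platelet-derived growth factor signalling. Many contractile genes are driven by the serum response factor with its coactivator myocardin, which bind a short element known as the CArG box. In a bulk sample such as a whole hippocampus, fewer cells of a type and less RNA per cell cannot be told apart.

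Levels are given as deposited, in TPM (transcripts per 1 M), a scale that corrects for transcript length. The 2 TPM tables, 1 per sex, were deposited separately, so changes were tested within a sex. Sex and table coincide, so a difference between the sexes cannot be told apart from one between the tables. Fold changes are those of the authors' deposited DESeq2 tables, also 1 per sex, with their unnamed direction turned to low minus high. Depth per library is unknown; summed over genes, the authors' mean normalized counts came to 42.6 M for males and 43.4 M for females. Each library had 18170 to 19062 genes at 1 TPM or more, and ribosomal and mitochondrial RNA took 21.3% to 32.2% of all TPM. The neuronal markers used to check the tissue (6 genes, among them Camk2a and Spink8) summed to between 3170 and 3800 TPM in every library. Transcripts of the choroid plexus, a tissue next to the hippocampus, varied widely: their main transcript Ttr lay between 12.6 and 3300 TPM.

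Promoters of contractile genes are shown first, because these genes varied together across libraries. RefSeq promoter entries on GRCm38.p6, running from 250 bases before to 50 after the start of the gene, were found for 7 of the 10 genes, not for Myh11, Tagln and Pdgfrb. Myh11 and Tagln are the members most like Acta2 across libraries, so the contractile promoters read here are a partial set. Capitals mark the CArG box, read on both strands since it is its own reverse complement in pattern, or a CArG box with 1 base off in its core of A and T. Acta2 (chr19:34255324-34255623, minus strand) and Myl9 (chr2:156775214-156775513, plus strand) held such elements, and Cnn1 (chr9:22099003-22099302, plus strand) is shown for contrast.
Acta2: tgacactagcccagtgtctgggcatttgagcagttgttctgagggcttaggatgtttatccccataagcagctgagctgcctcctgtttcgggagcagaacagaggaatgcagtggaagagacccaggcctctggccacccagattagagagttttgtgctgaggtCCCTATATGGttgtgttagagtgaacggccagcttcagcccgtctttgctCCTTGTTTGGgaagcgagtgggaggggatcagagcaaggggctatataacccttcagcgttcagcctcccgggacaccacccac
Myl9: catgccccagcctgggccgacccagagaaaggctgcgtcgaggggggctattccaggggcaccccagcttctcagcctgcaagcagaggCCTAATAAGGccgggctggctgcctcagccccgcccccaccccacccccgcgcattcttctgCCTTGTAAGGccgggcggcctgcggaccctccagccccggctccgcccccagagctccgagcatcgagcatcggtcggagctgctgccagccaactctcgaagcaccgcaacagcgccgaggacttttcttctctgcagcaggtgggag
Cnn1: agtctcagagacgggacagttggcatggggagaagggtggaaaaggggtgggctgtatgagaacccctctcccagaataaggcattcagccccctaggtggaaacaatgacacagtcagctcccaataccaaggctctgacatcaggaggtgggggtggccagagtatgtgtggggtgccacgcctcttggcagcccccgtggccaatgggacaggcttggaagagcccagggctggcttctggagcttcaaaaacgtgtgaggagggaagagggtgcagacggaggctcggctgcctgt
In Acta2, 2 elements with 1 base off began 84 and 34 bases before the start. In Myl9, an exact CArG box began 161 bases and one with 1 base off 99 bases before the start. The pericyte genes Rgs5, Kcnj8 and Abcc9, and Des, held neither form in this window. Among all 32851 RefSeq promoters of the same 300 bases, 1.63% held an exact CArG box and 8.5% one with 1 base off. These matches are letters in a window and were not measured as bound sites.

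All 10 genes were detected. Rgs5, a regulator of G protein signalling that is abundant in brain pericytes, had the highest median over the 12 libraries, 56.4 TPM. Myl9, a regulatory light chain of smooth muscle and non-muscle myosin, followed at 13.2 TPM, Acta2, smooth muscle alpha-actin, at 10.8 TPM, and Pdgfrb, the receptor that holds pericytes on the vessel, at 9.44 TPM. Tagln, an actin-binding protein of smooth muscle also called transgelin, had a median of 6.86 TPM. Abcc9, the sulphonylurea receptor subunit of the vascular ATP-sensitive potassium channel, had 3.81 TPM, and Myh11, the smooth muscle myosin heavy chain, 3.55 TPM. Des, the muscle intermediate filament desmin, had 2.3 TPM, and Kcnj8, the pore subunit of the same potassium channel, 1.9 TPM. Cnn1, calponin, an actin-binding protein of mature smooth muscle, was the lowest at 0.617 TPM and reached 1 TPM in 3 of the 12 libraries. Rgs5 lay above every other member in every library, and the lowest Tagln value, 4.97 TPM, lay above the highest Abcc9 value, 4.35 TPM. Between all other neighbours in this order the ranges over the 12 libraries overlapped.

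With the 4 groups pooled, the contractile genes spanned a wider range than most of the pericyte genes. These ranges hold differences between groups as well as between mice of a group. Over the 12 libraries the highest value was 3.17 times the lowest for Acta2, 3.19 times for Myh11, 3.36 times for Tagln and 2.3 times for Myl9. The same ratio was 1.46 for Rgs5, 1.45 for Pdgfrb, 1.39 for Abcc9 and 1.89 for Kcnj8. Des stood apart from these at 3.8, and Cnn1, near the limit of detection, at 11.7.

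**Figure D1:**
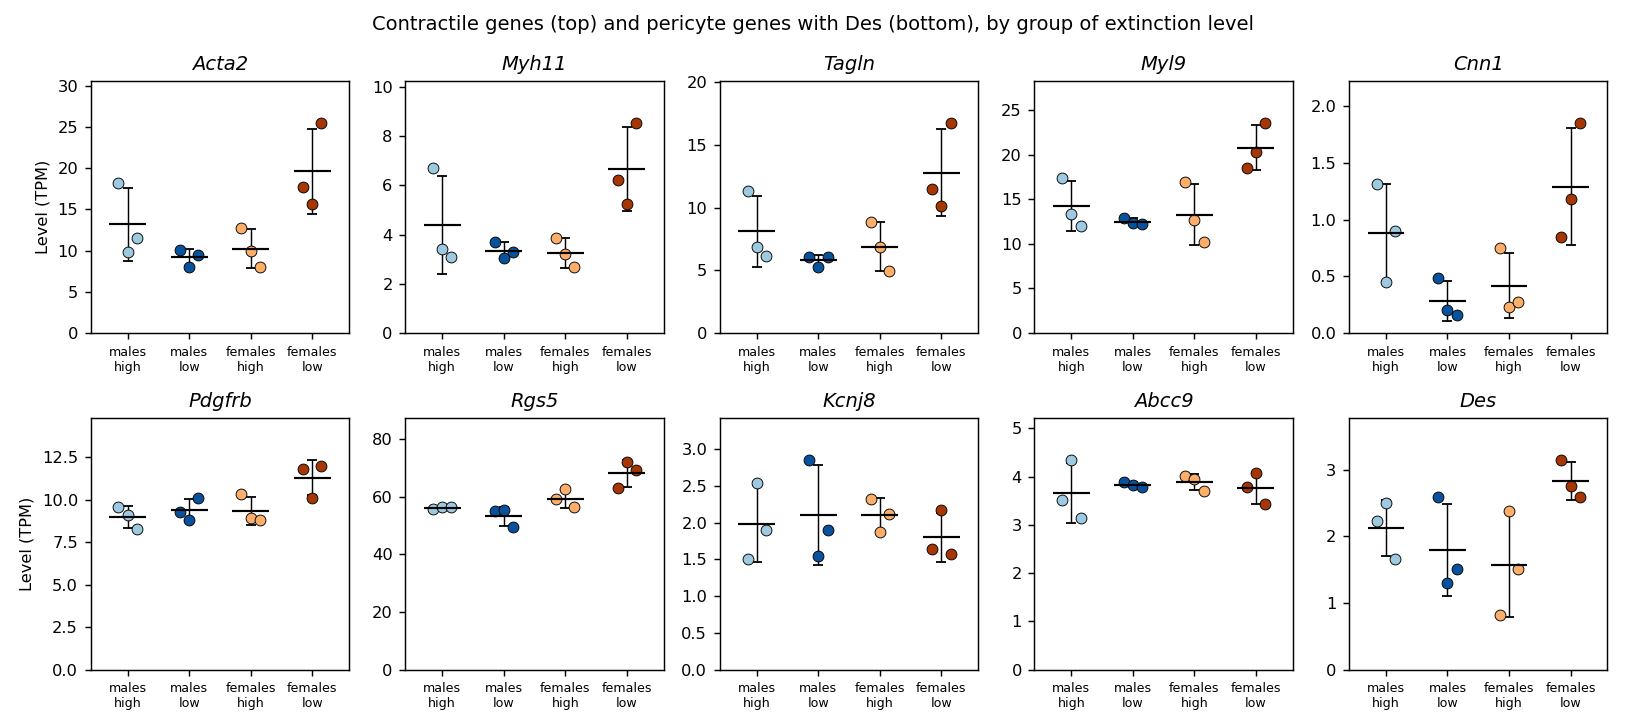
Level in TPM (vertical axes, each from 0) of the 10 genes in each of the 12 libraries, by sex and extinction level; points are mice, horizontal lines the mean and whiskers the SD of 3 mice. In the top row the 3 low-extinction females lie above the 3 high-extinction females in each of the 5 contractile genes, and replicate 1 of the high-extinction males, the left point of its group, lies above the other 5 males.

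In females, the contractile genes were higher at low extinction. Acta2 measured 12.7, 9.90 and 8.04 TPM in the 3 females with high extinction against 17.7, 15.6 and 25.5 TPM in the 3 with low extinction. The groups did not overlap, and replicate 3 of low extinction was the highest of all libraries. The mean went from 10.2 ± 2.37 to 19.6 ± 5.19 TPM (SD, n = 3 each), a ratio of 1.92. In the authors' deposited table Acta2 rose 1.79-fold (log2 0.84, SE 0.17, DESeq2 adjusted p = 0.000326).

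Myh11, the myosin that pairs with this actin in smooth muscle, lay at 3.87, 3.21 and 2.67 TPM at high and at 6.21, 5.22 and 8.53 TPM at low extinction in females. Again the groups did not overlap and the same library was highest. The authors' deposited table gave a 1.90-fold rise (log2 0.93, SE 0.15, DESeq2 adjusted p = 1.63e-06). Myl9 lay at 17, 12.6 and 10.3 TPM at high and at 18.6, 20.3 and 23.6 TPM at low extinction. Its groups were separated by a narrow gap, between 17 and 18.6 TPM. The authors' deposited table gave Myl9 a 1.5-fold rise (log2 0.58, SE 0.15, DESeq2 adjusted p = 0.0212).

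Tagln lay at 8.83, 6.84 and 4.97 TPM in high-extinction against 11.5, 10.1 and 16.7 TPM in low-extinction females, with no overlap and a ratio of means of 1.86. In the authors' deposited table it did not pass (1.44-fold, log2 0.53, SE 0.28, DESeq2 adjusted p = 0.517). Tagln spans 45929619 to 45936058 on the minus strand of chromosome 9, and 67.9% of its exonic bases are shared with exons of genes on the opposite strand, 108 bases with Pcsk7 and 1241 with the antisense gene Gm48529. The authors' mean normalized count per TPM and exonic kilobase was 4.03 for Tagln in males and 4.02 in females, while the other 9 members had 12.0 to 23.6 in males and 11.5 to 22.1 in females. The sources used here do not say if strand entered the counting, so the Tagln fold change is uncertain. The antisense gene, listed in the files as AC122273.2, had means of 1.68 TPM in high-extinction (1.58 to 1.81) and 1.82 TPM in low-extinction females (1.57 to 1.97), and these ranges overlapped. Pcsk7 had means of 13.1 ± 2.01 TPM in high-extinction and 16.1 ± 3.73 TPM in low-extinction females (SD, n = 3 each).

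Cnn1 lay at 0.745, 0.229 and 0.271 TPM in high-extinction against 0.842, 1.18 and 1.85 TPM in low-extinction females. No value overlapped, and all were low. Its mean stayed below the 1 TPM asked for testing, and the authors' deposited table gave a 2.14-fold difference with an unadjusted DESeq2 p of 0.0142 and listed no adjusted p. The protein of Acta2 is nearly the same as those of the other muscle actins, and how reads were split between their genes is not known and was not tested. The gut form Actg2 lay at 0.511 TPM or less, the cardiac form Actc1 at 0.126 TPM or less and the skeletal form Acta1 at 5.66 TPM or less in every library. Acta1 lay at 5.37 ± 0.298 TPM in high-extinction and 4.78 ± 0.642 TPM in low-extinction females (SD, n = 3 each).

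The pericyte genes gave smaller differences in females, and none of them passed. Rgs5 lay at 59.1, 62.7 and 56.5 TPM at high and at 62.9, 72.2 and 69.3 TPM at low extinction. The groups were separated only by 62.7 against 62.9 TPM. The authors' deposited table gave 1.08-fold (log2 0.11, SE 0.06, DESeq2 adjusted p = 0.557), with a 95% interval from 0.993 to 1.18-fold. Pdgfrb lay at 10.3, 8.94 and 8.81 TPM at high and at 11.8, 10.1 and 12.0 TPM at low extinction, and its groups overlapped. The authors' deposited table gave it 1.14-fold (DESeq2 adjusted p = 0.451), with an interval from 1.01 to 1.29-fold.

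Kcnj8 and Abcc9, which encode the 2 subunits of the vascular potassium channel and lie next to each other on the minus strand of chromosome 6, had values on the other side. Kcnj8 lay at 2.33, 1.88 and 2.12 TPM at high and at 1.65, 2.18 and 1.57 TPM at low extinction in females. Abcc9 lay at 4.02, 3.95 and 3.71 TPM at high and at 3.78, 4.08 and 3.43 TPM at low extinction. Both pairs of groups overlapped. The authors' deposited table gave ratios of 0.791 for Kcnj8 (interval 0.571 to 1.10, DESeq2 adjusted p = 0.699) and 0.955 for Abcc9 (interval 0.811 to 1.12, DESeq2 adjusted p = 0.930).

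Des, which both smooth muscle cells and pericytes can express, lay at 0.828, 2.38 and 1.51 TPM in high-extinction against 3.15, 2.76 and 2.59 TPM in low-extinction females, without overlap. Replicate 1 of high extinction was the lowest of the 12 libraries. The authors' deposited table gave Des a 1.77-fold difference that did not pass (log2 0.82, SE 0.26, DESeq2 adjusted p = 0.107). Its 95% interval, not adjusted for the number of genes, ran from 1.24 to 2.51-fold.

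Over the set, the authors' deposited table for females called 3 of 10 genes at an adjusted p under 0.05, Acta2, Myh11 and Myl9, all higher at low extinction. Cnn1 had no adjusted p there and could not be called. Of all 15644 genes with an adjusted p, 0.569% were called in that direction, 0.288% in the other and 0.857% in either. The median log2 change was 0.84 over the 5 contractile genes and 0.11 over the other 5, beside -0.01 over all genes of at least 1 TPM in that table. On TPM, 9 of the 10 genes reached a mean of 1 TPM and were tested with limma on log2(TPM + 1). All low-extinction females lay above all high-extinction females for 7 of the 10 genes, 6 of them among these 9, as for 14.3% of all genes tested. The reverse held for 0 of the 10 and for 1.98% of all genes. An unadjusted limma p under 0.05 toward low extinction was reached by 7 of the 9, Acta2, Myh11, Tagln, Myl9, Pdgfrb, Rgs5 and Des, and by 7.87% of all 18668 genes tested, whose median change on log2(TPM + 1) was 0.064. Under median-of-ratios scaling, which moved that median to 0.002, 5 of the 9 remained, without Pdgfrb and Rgs5. Over all genes 1373 of 18645 were then under 0.05 in either direction, beside 1648 of 18668 before. Without replicate 3 of either female group 4 of the 9 members remained, Acta2, Myh11, Tagln and Myl9. None of the 9 passed after adjustment, where limma called 2 of all genes, 0.0107%. The smallest limma adjusted p was that of Myh11, 0.414, with a log2 change of 0.84 (SE 0.19).

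In males, all 5 contractile genes had lower means at low than at high extinction, and none passed the test. Acta2 measured 18.2, 9.76 and 11.5 TPM in the 3 males with high extinction against 10.0, 8.02 and 9.52 TPM in the 3 with low extinction. Replicate 1 of high extinction stood above the other 5 males, which overlapped. The means were 13.2 ± 4.45 and 9.19 ± 1.04 TPM (SD, n = 3 each), and the authors' deposited table gave a ratio of 0.704 (log2 -0.51, SE 0.20, DESeq2 adjusted p = 0.376). The 95% interval of this ratio, not adjusted for the number of genes, ran from 0.536 to 0.923. Without that library the log2(TPM + 1) change of Acta2 went from -0.44 to -0.20.

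The same male was the highest of its sex for 5 of the 5 contractile genes. Myh11 lay at 6.69, 3.40 and 3.09 TPM at high and at 3.71, 3.05 and 3.28 TPM at low extinction, so that its log2(TPM + 1) change of -0.25 became 0.03 without this male. Tagln lay at 11.3, 6.89 and 6.11 TPM at high and at 6.07, 5.28 and 6.04 TPM at low extinction. Its groups did not overlap, by a gap of 6.07 against 6.11 TPM, and its change went from -0.38 to -0.14 without the same male. Myl9 lay at 17.4, 13.3 and 12.1 TPM at high and at 13, 12.3 and 12.3 TPM at low extinction, and went from -0.16 to -0.02. Cnn1 lay at 1.31, 0.451 and 0.897 TPM at high and at 0.489, 0.201 and 0.158 TPM at low extinction. The authors' deposited table gave Cnn1 a ratio of 0.359 (log2 -1.48, SE 0.58, DESeq2 adjusted p = 0.376), with an interval from 0.163 to 0.793. Intervals there reached from 0.433 to 1.31-fold for Myh11, from 0.444 to 1.18-fold for Tagln and from 0.688 to 1.11-fold for Myl9.

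The pericyte genes of males lay close together. Rgs5 lay at 55.7, 56.4 and 56.3 TPM at high and at 55.0, 55.4 and 49.5 TPM at low extinction, a small separation in which replicate 3 of low extinction was lowest. The authors' deposited table gave it a ratio of 0.964 with an interval from 0.871 to 1.07. Pdgfrb lay at 9.57, 9.12 and 8.29 TPM at high and at 9.30, 8.82 and 10.1 TPM at low extinction, with overlap and an interval from 0.923 to 1.23-fold in the authors' deposited table. Abcc9 ranged from 3.14 to 4.35 TPM, Kcnj8 from 1.51 to 2.86 TPM and Des from 1.3 to 2.59 TPM over the 6 males, and for each the groups overlapped. Intervals in the authors' deposited table reached from 0.908 to 1.31-fold for Abcc9, from 0.741 to 1.58-fold for Kcnj8 and from 0.627 to 1.36-fold for Des.

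Of the 10 genes, the authors' deposited table for males called 0 (DESeq2), against 0.504% of 20050 genes in either direction and 0.389% toward high extinction, and limma called 0 of 9, as it did of all 18303 genes tested. Every low library lay below every high one for Tagln and Rgs5, 2 of the 10, as for 7.28% of all genes, and above for 0 of 10, beside 4.2%. At an unadjusted limma p under 0.05, 0 of 9 members passed in males, where 2.36% of genes did toward low and 3.93% toward high extinction. The median log2 change in the authors' deposited table was -0.47 over the contractile genes and 0.09 over the other 5, beside -0.01 over all genes of at least 1 TPM.

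**Figure D2:**
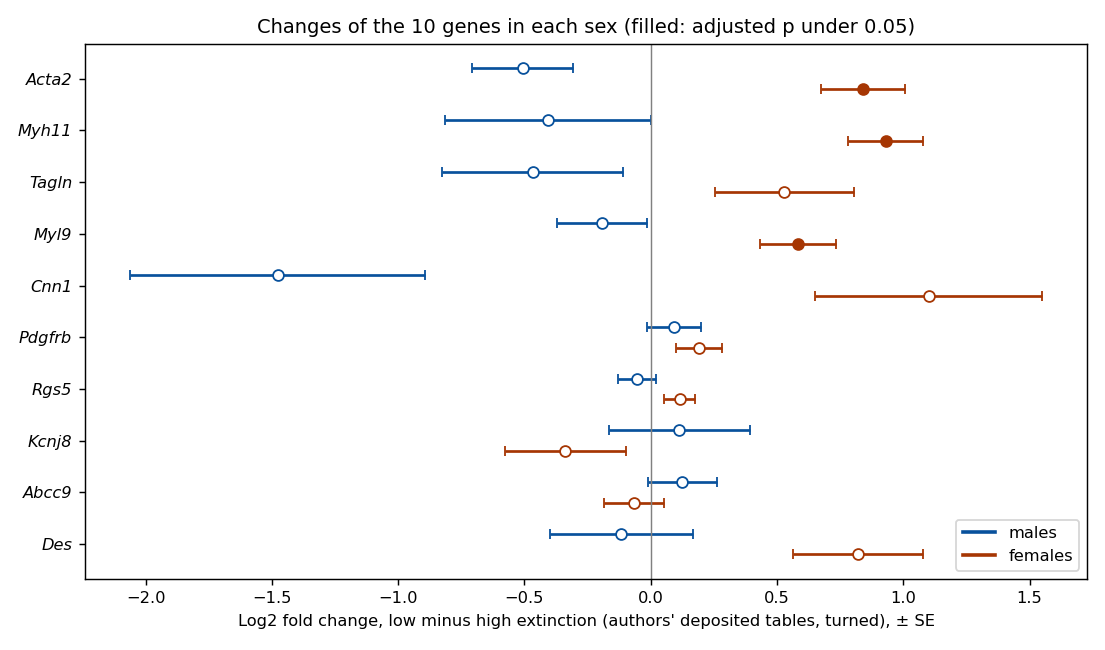
Log2 fold change, low minus high extinction, with its SE (horizontal axis) for each gene in the authors' deposited DESeq2 table of males (blue) and of females (brown); filled points have an adjusted p under 0.05. The 5 contractile genes lie left of 0 in males and right of 0 in females, with 3 filled points in females and 0 in males.

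The male and female changes were compared directly. In the authors' deposited tables all 5 contractile genes had negative estimates in males, where none passed, and positive ones in females, where 3 passed. Of the 5 only Acta2 passed the test of the difference between the sexes, which Cnn1 did not enter. For Acta2 the male log2 change of -0.51 minus the female change of 0.84 in the authors' deposited tables gave -1.35 (SE 0.26, 95% interval -1.86 to -0.84), with an adjusted p of 0.000286 over 15642 genes by a Wald test on the DESeq2 estimates. Myh11, Myl9 and Tagln did not pass that test. Myh11 had a difference of -1.34 (SE 0.43, DESeq2-based adjusted p = 0.210), Myl9 of -0.78 (SE 0.23, DESeq2-based adjusted p = 0.128) and Tagln of -0.996 (SE 0.45, DESeq2-based adjusted p = 0.624). Cnn1 had -2.58 (SE 0.74) with an unadjusted p of 0.00046 by the same Wald test and no adjusted p, having none in females. Of the 10 members, with Cnn1 outside the test, 1 passed, with a male change below the female change. Of all genes tested, 0.377% passed in that direction and 0.409% in either.

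On log2(TPM + 1) the interaction, male change minus female change, was -1.30 for Acta2 (SE 0.33, limma adjusted p = 0.408), and none of the 9 tested members passed. Here 6 of the 9 had an unadjusted limma p under 0.05 with a male change below the female one, against 7.02% of 18499 genes. After adjustment limma called 1 of all genes (0.00541%). Under median-of-ratios scaling 5 of the 9 were under 0.05, without Rgs5, beside 1206 of 18490 genes in either direction. The Acta2 difference was -1.06 once replicate 1 of the high-extinction males was dropped, and -1.11 once replicate 3 of the low-extinction females was.

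For the pericyte genes the sexes were not shown to differ. The difference between the authors' male and female log2 changes had a 95% interval from -0.36 to 0.02 for Rgs5, from -0.37 to 0.18 for Pdgfrb, from -0.27 to 1.17 for Kcnj8 and from -0.16 to 0.55 for Abcc9. Des had -0.94 with an interval from -1.69 to -0.19, and its adjusted p was 0.497 by the same DESeq2-based test.

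Averaged over both sexes, 0 of 9 members passed with limma, which called 0 of 18499 genes (0%). At an unadjusted limma p under 0.05 were 1424 genes, 1070 of them higher at low extinction (5.78%) and 354 lower (1.91%). Of the members, 1 of 9 was among them, Pdgfrb, higher at low extinction. Without replicate 1 of the high-extinction males there were 4, Acta2, Myh11, Myl9 and Pdgfrb. Under median-of-ratios scaling there were 0, beside 1581 of 18490 genes in either direction. The same average of the authors' deposited log2 changes was 0.17 (SE 0.13) for Acta2 and 0.26 (SE 0.22) for Myh11, and 0 of the members passed there, beside 1.05% of all genes. The largest average among the pericyte genes with Des was that of Des, 0.35 (SE 0.19, DESeq2-based adjusted p = 0.529).

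**Figure D3:**
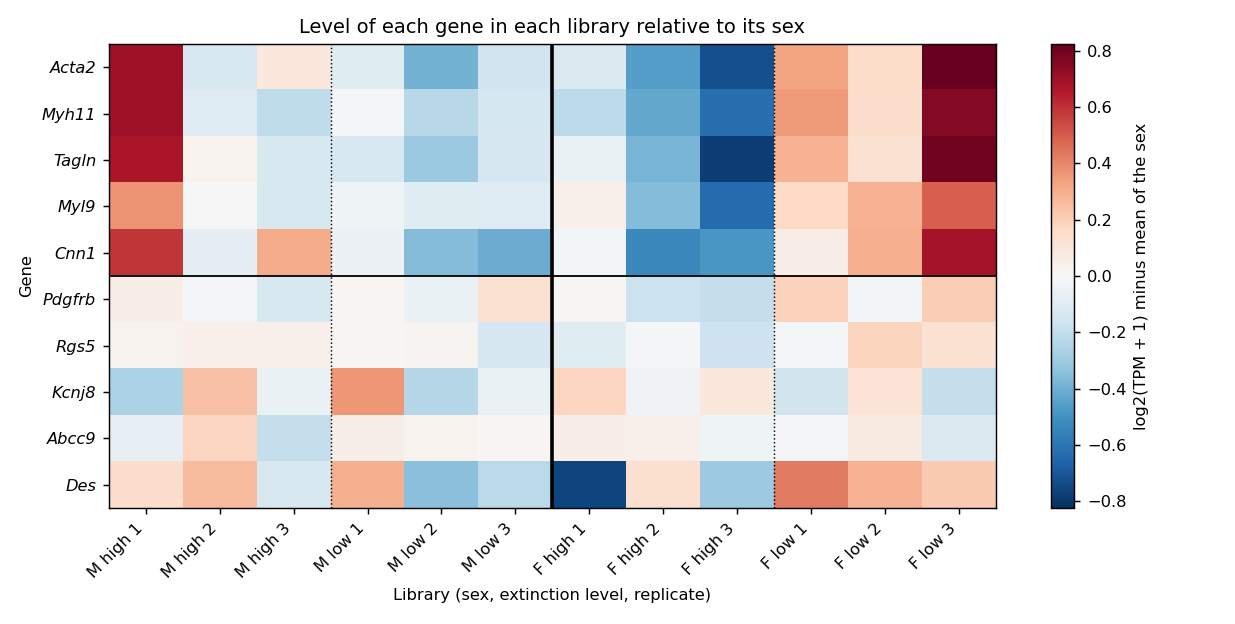
Level of each gene (rows) in each library (columns, M males and F females, with extinction level and replicate), as log2(TPM + 1) minus the mean of the 6 libraries of that sex; red is above and blue below. The 5 contractile rows share their reddest library in each sex, replicate 1 of the high-extinction males and replicate 3 of the low-extinction females, and of the 5 rows below only Pdgfrb has its highest female library there, and none its highest male library.

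Acta2, Myh11, Tagln and Myl9 moved together from mouse to mouse, also within groups. Replicate 3 of the low-extinction females was the highest female for 5 of the 5 contractile genes, and replicate 3 of the high-extinction females the lowest for 4 of 5. To leave the extinction groups out, the mean of each group was subtracted from log2(TPM + 1), and genes were ranked by their Pearson r to Acta2 over the 12 libraries among 18045 other genes of at least 1 TPM in both tables. Cnn1 averaged below 1 TPM and was not ranked. Tagln came at rank 2 (r = 0.95), Myh11 at rank 4 (r = 0.94) and Myl9 at rank 25 (r = 0.84). Pdgfrb followed at rank 178 (r = 0.70), while Rgs5 (r = -0.01), Des (r = -0.15), Kcnj8 (r = -0.32) and Abcc9 (r = -0.38) showed no like pattern. The genes outside the set most like Acta2 were Trub2, a pseudouridine synthase (r = 0.97), Cyp4f16 (r = 0.94), Mga (r = 0.92), Gm17396 (r = 0.92) and Pgd, an enzyme of the pentose phosphate pathway (r = 0.91).

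With the same measure, no member was close to Rgs5. The highest was Myl9 at rank 4920 (r = 0.25), Abcc9 had r = 0.20 and Kcnj8 r = 0.18, and Pdgfrb lay at r = -0.51. The 5 genes most like Rgs5 were Gm10644 (r = 0.94), Loxl3, a lysyl oxidase (r = 0.92), n-R5s95 (r = 0.91), Gm5435 (r = 0.91) and Prpf3, a splicing factor (r = 0.91). These values rest on 12 libraries in 2 separately deposited TPM tables, and r is a description of likeness only.

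Other contractile genes and the factors that drive them were examined as a list of 24 genes, all found in the tables. In females the authors' deposited table called 2 of 24, both higher at low extinction, beside 0.569% of all genes in that direction: Flna, the actin cross-linker filamin A (1.25-fold, DESeq2 adjusted p = 0.000506), and Mylk, the kinase that activates myosin light chains (1.25-fold, DESeq2 adjusted p = 0.0452). Mylk lay at 6.12, 6.89 and 5.65 TPM at high and at 8.19, 7.65 and 8.97 TPM at low extinction in females. Myocd, Actg2, Casq2, Mustn1 and Pln had no adjusted p in females and could not be called, nor could Myocd and Actg2 in males. The 20 genes of at least 1 TPM in females had a median log2 change of 0.14 in the authors' deposited table, with 13 above 0. In males 0 of 24 were called by DESeq2, beside 0.504% of all genes, and the 20 genes had a median of -0.04 with 7 above 0. Among these 20 genes the largest male changes, which did not pass, were those of Sncg, gamma-synuclein (ratio 0.699), and Tpm2, a muscle tropomyosin (ratio 0.800).

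Srf, the serum response factor, had means of 33.5 ± 0.515 TPM in high-extinction and 31.0 ± 2.95 TPM in low-extinction females, and of 32.1 ± 0.590 and 28.9 ± 0.666 TPM in males (SD, n = 3 each). The authors' deposited tables gave it ratios of 0.874 in females (DESeq2 adjusted p = 0.248) and 0.911 in males (DESeq2 adjusted p = 0.662). Myocd, the coactivator myocardin, was near the limit of detection, at 0.714 TPM or less in every library. Srf and Myocd were picked from the list after their values were seen.

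Of 20 other pericyte genes, the authors' deposited table for females called 1, Slc6a20a, a proline transporter that rose 1.63-fold (DESeq2 adjusted p = 7.94e-05), beside 0.569% of all genes in that direction. Slc6a20a lay at 11.4, 9.28 and 9.62 TPM at high and at 15.8, 14.7 and 20.4 TPM at low extinction in females, and at 16.6, 12.1 and 10.3 against 9.64, 5.76 and 8.46 TPM in males. This gene is also expressed in the meninges. Higd1b, Cox4i2, Ggt1, Foxs1 and Ifitm1 had no adjusted p in females and could not be called, nor could Foxs1 in males. The 19 genes of at least 1 TPM had a median log2 change of 0.24 in females, with 16 above 0. In males 18 had a median of -0.08, with 8 above 0, both in the authors' deposited tables. No gene of this list was called by DESeq2 in males, beside 0.504% of all genes. Among the 18 genes of at least 1 TPM in males, Slc6a20a (ratio 0.615) and Ifitm1 (ratio 0.681) had the largest changes.

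Genes of mural cell recruitment and receptor signalling, 21 in all with Pdgfb and the Notch and angiopoietin genes, share Heyl and Notch3 with the pericyte list and gave 0 DESeq2 calls in either sex, beside 0.504% of all genes in males and 0.857% in females. Their median log2 change in the authors' deposited tables was 0.07 in females and -0.06 in males. Foxf2, a transcription factor of brain pericytes, was among the largest in both sexes, with ratios of 0.809 in females and 0.744 in males, and did not pass in either. Heyl, a Notch target, had 1.34-fold in males (DESeq2 adjusted p = 0.618), and Angpt2, angiopoietin 2, 1.22-fold in females (DESeq2 adjusted p = 0.866).

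Markers of the other cells around vessels were read beside these results. The 14 markers of meningeal fibroblasts summed to between 148 and 160 TPM in high-extinction and between 191 and 246 TPM in low-extinction females. In males they summed to between 170 and 219 TPM at high and between 86.8 and 147 TPM at low extinction. The highest sum in each sex came from the library that was also highest in the contractile genes, replicate 3 of the low-extinction females with 246 TPM and replicate 1 of the high-extinction males with 219 TPM. The authors' deposited tables called 6 of the 14 in females, all higher at low extinction, beside 0.569% of all genes in that direction. They called 1 in males, Col3a1, higher at high extinction (3.14-fold, DESeq2 adjusted p = 0.0122), beside 0.389%. None of the 14 was at 0, and the part of the meninges in the contractile differences was not tested.

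Endothelial markers, 16 genes with Cldn5 and Pecam1, summed to between 329 and 357 TPM in high-extinction and between 351 and 388 TPM in low-extinction females. They summed to between 296 and 332 and between 305 and 318 TPM in males. The groups overlapped in both sexes, and the authors' deposited tables called 0 of 16 in each (DESeq2), beside 0.857% of all genes in females and 0.504% in males. Replicate 3 of the low-extinction females was also the highest female for the endothelial sum (388 TPM) and for the neuronal markers (3730 TPM). Of all libraries it had the smallest share of ribosomal and mitochondrial RNA, 21.3%, and the most genes at 1 TPM, 19062. Replicate 1 of the high-extinction males had 306 TPM and 3170 TPM in these sums, not the highest of the males. The 7 pericyte markers, 4 of them members, summed to between 132 and 150 TPM at high and between 159 and 177 TPM at low extinction in females, and to between 136 and 147 and between 130 and 138 TPM in males. These sums overlapped in males and not in females. The highest sums, 177 TPM in females and 147 TPM in males, came from the libraries that were highest in the contractile genes. Vtn, 1 of the 7 markers, also had its highest value of each sex there, 82.6 TPM in females and 72.0 TPM in males. Rgs5, Kcnj8 and Abcc9 had their highest values in other libraries in both sexes, so the shared library was not a trait of the pericyte markers as a group. In the authors' deposited table for females 4 of the 7 markers had a positive change, with a median log2 change of 0.11. DESeq2 called 0 of the 7 there, beside 0.857% of all genes in either direction, and gave Higd1b no adjusted p. Blood cell markers, 7 genes, overlapped between groups in both sexes, with sums from 384 to 638 TPM at high and from 311 to 598 TPM at low extinction in females. Choroid plexus markers, 12 genes, summed to 3120, 3560 and 345 TPM in high-extinction and 1000, 61.6 and 70.3 TPM in low-extinction males. DESeq2 called 0 of the 12 in males, beside 0.504% of all genes, and listed no p for Ttr and Kcne2, which could therefore not be called. The groups overlapped, but 0 of 12 markers had a positive change in the authors' deposited table for males. The median log2 change was -2.32 and the Ttr ratio 0.156. The male contractile means had the same order, and the part of the choroid plexus in them was not tested. In females the choroid plexus sums were 27.9, 1300 and 1190 TPM at high and 769, 1120 and 111 TPM at low extinction, with a median log2 change of -0.20 in the authors' deposited table. Skeletal and cardiac muscle markers, 8 genes, stayed between 5.30 and 9.31 TPM in all libraries, with Actc1 at 0 in all females.

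**Figure D4:**
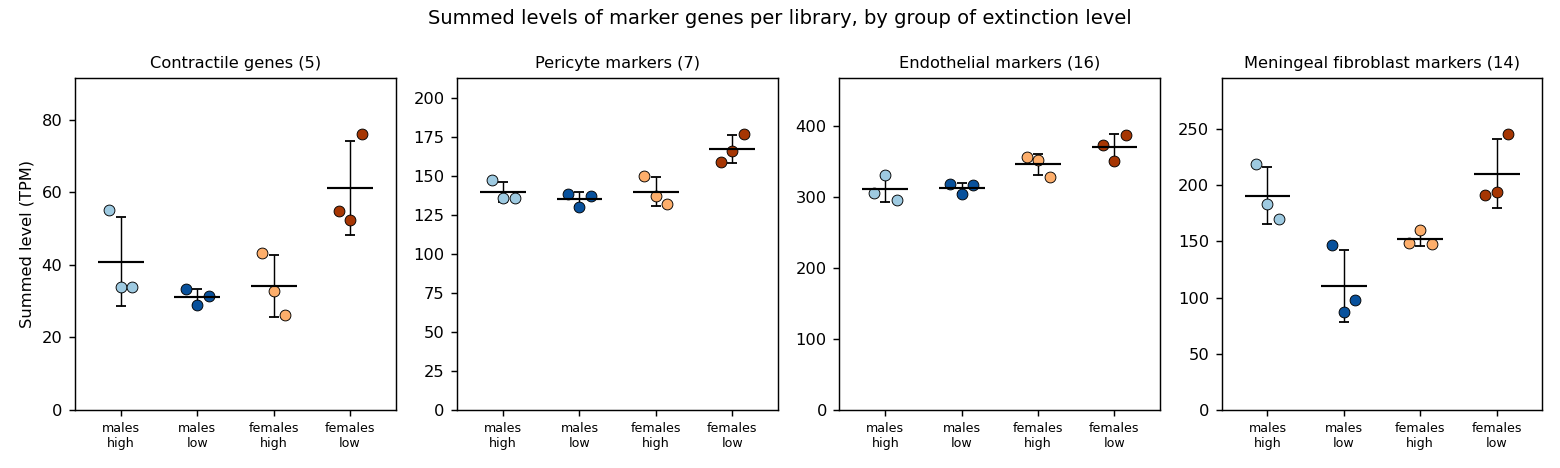
Summed level in TPM (vertical axes, each from 0) of the 5 contractile genes and of the pericyte, endothelial and meningeal fibroblast markers in each library; lines are means and whiskers the SD of 3 mice. The contractile, pericyte and meningeal fibroblast sums share the highest library in each sex. It is replicate 3 of the low-extinction females and replicate 1 of the high-extinction males. Among the pericyte markers Vtn is highest in these libraries, and Rgs5, Kcnj8 and Abcc9 are not. The endothelial sum is highest in the same library in females and not in males. In females the contractile, pericyte and meningeal fibroblast sums do not overlap between extinction levels, while the endothelial sums overlap in each sex.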

How the data were processed

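Hippocampal RNA of 12 mice was enriched for polyadenylated RNA before library preparation, per the labels' protocols. Tools listed in the submitters' processing notes, with no role given, are StringTie 1.3.3b, HTSeq, Bowtie2, TopHat2 and the authors' DESeq2, and the builds are mm10 and GRCm38.p5. The authors deposited TPM per mouse in 1 table per sex, which keeps no depth. They also deposited, per the file headers, DESeq2 tables with the log2 fold change and its error, the test statistic (a score), and raw and adjusted p-values. The direction is not named there. Against the TPM change (low minus high), the deposited log2 fold change had a Pearson r over genes of -0.58 for males and -0.46 for females, and 101 of 101 and 133 of 134 called genes had the opposite sign, so all were multiplied by -1. Mouse names link columns to labels, and replicates are numbered in record order. No 2 libraries were identical.

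The test on log2(TPM + 1), a scale that compresses changes of low genes, kept genes averaging 1 TPM or more and used limma 3.58.1 in R 4.3.3 (mean-variance trend, Benjamini-Hochberg adjustment over all genes, 0.05), per sex, and jointly over 12 libraries for average and interaction. The step was tested on simulated data. Differences between the sexes in the authors' fold changes used the combined standard error and a normal reference (scipy 1.17.1), adjusted over all genes. GENCODE M21 (GRCm38) gave gene positions. The members and lists were chosen with earlier results of these data known. All members are named, with list genes called by the authors. Where none was called, the 2 largest changes among list genes averaging 1 TPM or more in that sex are named. The 5 genes most like Acta2 and Rgs5 are named too. Alternatives were a pseudocount of 0.1, a filter of 5 TPM or none, other scalings and variance models, 1 fit over both sexes, and leaving out each library.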

Additional observations from a re-analysis of the deposited data

Results flagged for a closer look

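The male and female log2 changes of Acta2 in the authors' deposited tables differed by -1.35 (male minus female), which passed the DESeq2-based test over all genes (adjusted p = 0.000286). The female change of 0.84 passed (DESeq2 adjusted p = 0.000326) and the male change of -0.51 did not (DESeq2 adjusted p = 0.376). On log2(TPM + 1) the same difference was -1.30 and did not pass (limma adjusted p = 0.408). The meningeal fibroblast markers had opposite orders in the sexes as well, and their part in the difference was not tested. Replicate 1 of the high-extinction males held the highest Acta2 level of the males, 18.2 TPM, and without it the difference on log2(TPM + 1) was -1.06. Choroid plexus markers were also higher in that library (3120 TPM) than in the low-extinction males (61.6 to 1000 TPM). They were higher still in replicate 2 of the high-extinction males (3560 TPM), where Acta2 was 9.76 TPM. Replicate 3 of the low-extinction females, the highest in Acta2, had 111 TPM of them. The part of the choroid plexus was not tested.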

How the results depend on the processing

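The count of members called by limma was 0 in each of the 4 contrasts under every alternative pseudocount, filter, scaling and variance model, in the joint fit and without any single library (range 0 to 0). On TPM, the direction of 5 changes turned when 1 library was left out, each with a limma adjusted p between 0.932 and 0.999. Without replicate 1 of the high-extinction males Myh11 went to 0.0324 and Kcnj8 to -0.07 in males, and Kcnj8 was -0.12 without replicate 1 of the low-extinction males. Abcc9 was -0.023 in males without replicate 3 of high extinction and 0.0109 in females without replicate 3 of low extinction. Leaving out single libraries gave ranges from -0.42 to 0.0324 for Myh11, -0.12 to 0.18 for Kcnj8 and -0.023 to 0.16 for Abcc9 in males, and from -0.0877 to 0.0109 for Abcc9 in females. For Acta2 the ranges were -0.61 to -0.20 in males and 0.67 to 1.02 in females, and for Myh11 in females 0.67 to 0.97. The calls of Acta2 (0.84), Myh11 (0.93) and Myl9 (0.58) in females rest on the authors' count-based DESeq2 table, and limma on TPM did not make them. Cnn1, below the limma filter, had -1.48 in males and 1.10 in females there. The authors' calls could not be repeated without single libraries, since counts per library were not analysed here. No paired analysis was possible because no mouse number in the labels is shared by the high and low groups of a sex (a few recur across the sexes) and replicate numbers here only name libraries. Counts of members at an unadjusted limma p under 0.05, a check added after seeing the data, ranged without single libraries from 4 to 6 in females, 0 to 1 in males, 4 to 6 for the interaction and 0 to 4 on average. The count over all genes moves with the setting too, in females from 1648 of 18668 to 1373 of 18645 under median-of-ratios scaling. For single libraries left out it is not given here, so these ranges stand without a share. Depth per library is unknown, and Cnn1 reached 1 TPM in 3 of 12 libraries.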
